A study of Homo sapiens with 70 samples.

Results

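The effect of HMGA1 depletion on the transcriptome of oncogene-induced senescent (OIS) fibroblasts was examined in 16 of the 70 samples of the series. The 16 libraries were chosen by their labels, 8 from OIS cells and 8 from OIS cells with a short hairpin RNA against HMGA1 (OIS-shA1). IMR90 is a line of normal human lung fibroblasts. All 16 cultures carried the retroviral construct pLNCX2 ER:HRAS G12V, in which a mutant HRAS is joined to an oestrogen receptor domain and becomes active once 4-hydroxytamoxifen (4OHT) is added. All 16 were given 100 nM 4OHT for 6 days. The OIS cells also carried the empty miR30 backbone in a pMSCV retrovirus and the OIS-shA1 cells the same vector with the hairpin. A single hairpin was used, so effects of lower HMGA1 and effects of the hairpin on other transcripts cannot be told apart here. Each library held poly(A)-selected RNA of a whole culture, in which fewer cells of a type and less RNA per cell cannot be told apart. The label text counts 6 biological replicates of each condition and the methods 8, and nothing ties a library to a culture of its own, so the p-values measure the spread between these samples.

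HMGA1 is a small chromatin protein whose AT-hooks sit in the minor groove of A/T-rich DNA, where it bends the double helix. It has been described as helping transcription factors to assemble, but the authors found little evidence that it activates genes directly. In senescent fibroblasts it accumulates on chromatin and takes part in senescence-associated heterochromatic foci, the compact DNA bodies of RAS-arrested nuclei. Senescent cells no longer divide but remain metabolically active and release cytokines, chemokines, growth factors and proteases, together the senescence-associated secretory phenotype (SASP).

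HMGA1 (ENSG00000137309, hg19 chromosome 6, 34204650 to 34214008) had lowest, median and highest levels of 664, 791 and 888 CPM in OIS and 54.3, 63.4 and 72.8 CPM in OIS-shA1 (log2 fold change -3.62, standard error 0.06, edgeR adjusted p = 1.49e-25). CPM are counts scaled to TMM-normalised library sizes, as used throughout. The 8 OIS-shA1 libraries all lay under the OIS libraries, so the knock-down matched the labels. Total counts were 16088398 to 18475595 in 7 OIS libraries and 14621297 to 22136571 in OIS-shA1, but only 1903607 in OIS replicate 4, where 14249 genes had at least 1 count against 18064 to 19339 elsewhere. This library stood apart from the other 15 on the first principal component (36.3% of the variance of log2 CPM), and the second (23.5%) parted the other OIS libraries from OIS-shA1. The label lung fibroblast was met by the 12 fibroblast markers fixed for it, all of which passed the filter on low counts. Their summed level was 11617 to 13593 CPM in OIS and 11956 to 13335 CPM in OIS-shA1. Markers of epithelial, endothelial, blood, fat and nerve cells were low and overlapped between the groups, and CDH1, KRT5, KRT14, CD3E, LYZ, ADIPOQ, FABP4 and STMN2 had 0 counts in all 16 libraries.

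HMGA1 depletion shifted a large part of the expressed genome of OIS cells by small amounts and in both directions. Of 13327 genes with enough counts to be tested, 2500 (18.8%) were higher and 2284 (17.1%) lower in OIS-shA1, together 35.9%, at a Benjamini-Hochberg adjusted p under 0.05 in edgeR's quasi-likelihood test. Most shifts were modest, with a median size of 0.31 on the log2 scale among the called genes and an upper quartile of 0.51. A change of at least 1.5-fold was reached by 446 higher genes (3.35% of those tested) and 535 lower genes (4.01%), and a change of at least 2-fold by 99 and 195. In 1258 genes (9.44%) the groups did not overlap in any library, 681 of them higher and 577 lower in OIS-shA1. Without OIS replicate 4, 5155 of 13431 genes (38.4%) were called, and 4697 of the 4784 genes called with it were called again, all in the same direction. How the calls divided between rises and falls depended on the scaling. Scaled by library size only, 1553 genes were higher and 4037 lower, and the median over all genes was -0.09 in place of -0.00022 on the log2 scale.

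**Figure D1:**
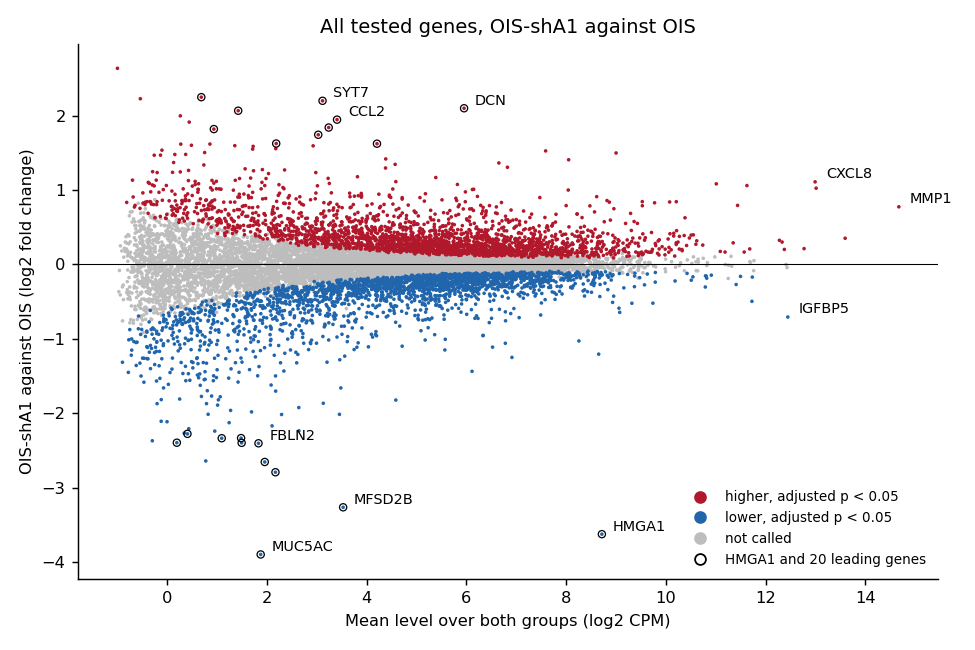
Mean level of each tested gene (horizontal axis, log2 CPM over the 16 libraries) against its log2 fold change in OIS-shA1 relative to OIS (vertical axis), with the 2500 called higher and 2284 called lower in colour, HMGA1 and the 20 leading genes ringed and a few genes named. Most coloured points lie within 1 log2 unit of 0, and the leading genes stand apart at low and middle levels.

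The genes that rose most were a mix of membrane protein, secreted protein and untranslated transcripts. SYT7, a synaptotagmin that acts as calcium sensor in lysosome and vesicle fusion, had lowest, median and highest levels of 2.12, 3 and 4.07 CPM in OIS and 11.9, 14 and 17.3 CPM in OIS-shA1 (log2 fold change 2.2, standard error 0.12, edgeR adjusted p = 1.58e-13). No OIS library reached the lowest OIS-shA1 value. DCN encodes decorin, a small leucine-rich proteoglycan that binds collagen fibrils and TGF-beta. It stood at 20.4, 24 and 27 CPM in OIS and 88.4, 101 and 114 CPM in OIS-shA1 (log2 fold change 2.1, standard error 0.07, edgeR adjusted p = 4.46e-19), with a wide gap between the groups. CCL2, the chemokine that draws monocytes, measured 3.45, 4.44 and 5.52 CPM in OIS and 12.7, 16.6 and 20.4 CPM in OIS-shA1 (log2 fold change 1.95, standard error 0.12, edgeR adjusted p = 7.23e-13). Here too the lowest OIS-shA1 library lay above the highest OIS library.

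EVI2A and EVI2B, membrane protein genes best known from blood cells, lie on the strand opposite to NF1 and within its span (EVI2A at hg19 chromosome 17, 29644578 to 29648902). EVI2A had 0, 0.531 and 0.975 CPM in OIS and 2.15, 2.76 and 3.33 CPM in OIS-shA1 (log2 fold change 2.25, standard error 0.21, edgeR adjusted p = 1.98e-09), and the count of 0 was that of the shallow OIS replicate 4. In EVI2B the log2 fold change was 1.84, and 524 exon bases of EVI2A are shared with another gene of the same strand, where fragments were not assigned. NF1 itself, the RAS-GTPase activator gene that surrounds them, measured a log2 fold change of -0.25. ANO3, a membrane protein of the anoctamin family, had 0.536, 0.914 and 1.15 CPM in OIS and 2.35, 3.23 and 3.44 CPM in OIS-shA1 (log2 fold change 1.82). LIPG, endothelial lipase, had 1, 2.29 and 2.86 CPM in OIS and 5.7, 6.37 and 8.99 CPM in OIS-shA1 (log2 fold change 1.63). Neither gene overlapped between the groups. FER1L6, a ferlin (1.62), RPSAP52, a pseudogene transcript beside HMGA2 (1.74), and the untranslated LINC02029 (2.07) completed the 10 leading rises. FER1L6 and LINC02029, like MCPH1-AS1 among the falls, overlap exons on the opposite strand, and since the counting ignored strand, fragments there were not assigned.

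The largest falls included extracellular matrix and secreted proteins. MUC5AC, the gel-forming mucin of the airway, measured 1.11, 6.57 and 14.9 CPM in OIS and 0, 0.403 and 0.783 CPM in OIS-shA1 (log2 fold change -3.9, standard error 0.42, edgeR adjusted p = 3.61e-08). The OIS libraries were widely spread and the OIS-shA1 libraries all near 0. MFSD2B, a transporter that exports sphingosine-1-phosphate, had 14.5, 20.2 and 25 CPM in OIS and 1.56, 2.16 and 3.06 CPM in OIS-shA1 (log2 fold change -3.26, standard error 0.12, edgeR adjusted p = 1.56e-17). The OIS libraries lay far above the highest OIS-shA1 library. FBLN2, fibulin-2 of elastic fibres and basement membranes, had 3.57, 6.11 and 9.53 CPM in OIS and 0.806, 1.06 and 1.55 CPM in OIS-shA1 (log2 fold change -2.4, standard error 0.18, edgeR adjusted p = 2.7e-11). ANOS1, a secreted heparan sulphate-binding protein, had 2.51, 4.97 and 5.82 CPM in OIS and 0.588, 0.721 and 2.17 CPM in OIS-shA1 (log2 fold change -2.33, standard error 0.21, edgeR adjusted p = 1.65e-09). For both genes the groups were apart, although OIS-shA1 replicate 7 lay far above the other OIS-shA1 libraries for ANOS1.

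SLCO2A1, the transporter that takes up prostaglandins, stood at 1.4, 2.18 and 3.16 CPM in OIS and 0, 0.478 and 0.812 CPM in OIS-shA1 (log2 fold change -2.28). PLCH1, a phospholipase C, had 2.51, 3.45 and 4.75 CPM in OIS and 0.336, 0.548 and 1.66 CPM in OIS-shA1 (log2 fold change -2.34). Both were separated in all libraries. TEX14, needed for the bridges between germ cells (-2.4), and the untranslated LINC00452 (-2.79) and MCPH1-AS1 (-2.4) also fell. RNU6-1, a copy of the U6 spliceosomal RNA, had a log2 fold change of -2.65, but it has near-identical copies whose shared reads were not counted, so its value is uncertain. All 20 leading genes remained called, in the same direction, without OIS replicate 4 and in every other fit that tested them.

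**Figure D2:**
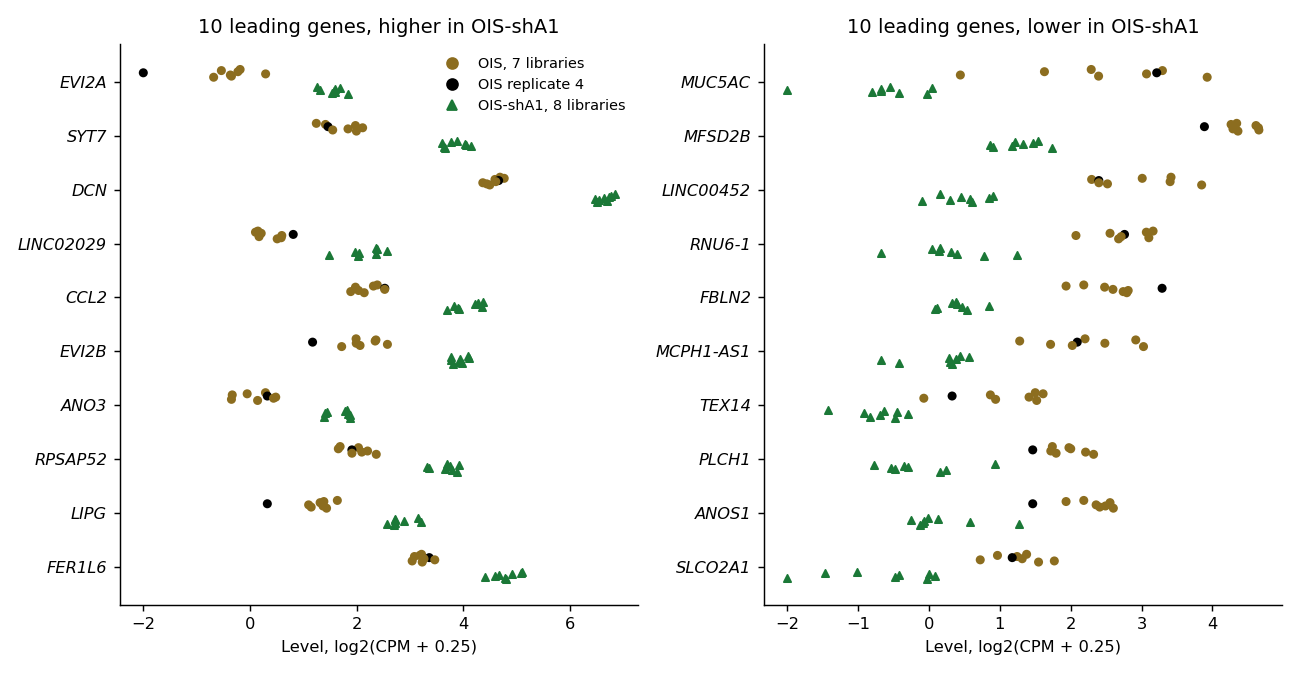
Level in each library (horizontal axis, log2 of CPM plus a small constant) of the 10 leading rises and 10 leading falls, OIS and OIS-shA1 libraries in separate colours with OIS replicate 4 marked. The groups do not overlap in any of the 20 genes, as the rule that chose them required, and MUC5AC shows the widest spread within OIS.

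Since HMGA1 reads A/T-rich DNA, the promoters of the leading genes are shown for the 2 rises and 2 falls of largest change that have an entry in the RefSeq table used and a role described above. Each spans 250 bases before to 50 bases after the gene's start on the plus strand of GRCh38.p14, 5′ to 3′, with unbroken runs of at least 6 bases made only of A and T in capitals. They lie at chr11:26188558-26188857 (ANO3), chr18:49561807-49562106 (LIPG), chr2:24009835-24010134 (MFSD2B) and chr3:13548875-13549174 (FBLN2).
ANO3: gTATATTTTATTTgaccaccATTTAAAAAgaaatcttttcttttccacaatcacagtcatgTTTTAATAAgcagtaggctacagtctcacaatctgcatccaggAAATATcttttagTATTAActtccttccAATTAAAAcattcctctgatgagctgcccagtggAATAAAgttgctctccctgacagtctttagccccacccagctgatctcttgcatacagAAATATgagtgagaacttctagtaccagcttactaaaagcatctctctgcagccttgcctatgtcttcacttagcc
LIPG: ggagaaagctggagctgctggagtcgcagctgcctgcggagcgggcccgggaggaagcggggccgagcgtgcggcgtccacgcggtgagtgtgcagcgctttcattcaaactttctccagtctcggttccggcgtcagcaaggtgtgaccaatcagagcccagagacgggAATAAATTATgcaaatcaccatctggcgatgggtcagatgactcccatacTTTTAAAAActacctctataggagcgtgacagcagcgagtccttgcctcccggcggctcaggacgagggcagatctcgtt
MFSD2B: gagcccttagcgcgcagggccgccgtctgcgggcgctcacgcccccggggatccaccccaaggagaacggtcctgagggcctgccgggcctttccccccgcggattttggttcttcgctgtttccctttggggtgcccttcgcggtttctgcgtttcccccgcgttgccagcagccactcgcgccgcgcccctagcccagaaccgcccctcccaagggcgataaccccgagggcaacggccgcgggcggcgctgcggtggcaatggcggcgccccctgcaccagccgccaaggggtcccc
FBLN2: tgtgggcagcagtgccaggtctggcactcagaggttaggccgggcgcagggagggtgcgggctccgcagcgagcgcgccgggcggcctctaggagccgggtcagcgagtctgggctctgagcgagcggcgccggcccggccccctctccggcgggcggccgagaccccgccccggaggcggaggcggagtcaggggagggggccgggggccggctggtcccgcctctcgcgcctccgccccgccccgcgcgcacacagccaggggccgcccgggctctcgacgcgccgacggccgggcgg

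The ANO3 window was 61% A+T and held 8 such runs, and that of LIPG 41.3% with 2 runs. The windows of MFSD2B (27.3% A+T) and FBLN2 (19% A+T) held none. Such a run was held by 62.0% of all 27305 promoters listed and by 46.9% of the 10255 tested genes with an entry. These 4 windows are shown as examples only, and no rule for rises or falls can be read from them. Only 76.9% of the tested genes had an entry, which is too few for a comparison over genes, and no comparison of promoters between higher and lower genes is given.

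The counts were more concentrated in the highest genes after HMGA1 depletion. The 10 highest genes held 7.73 ± 0.238% of the counts in OIS and 10.1 ± 0.290% in OIS-shA1 (SD, n = 8 each). The groups did not overlap, and a two-sided exact permutation test gave p = 1.55e-04, the smallest it can give (adjusted over 5 library measures 3.89e-04). The 10 genes were not the same in both groups, with IGFBP5 among them in OIS only and COL6A1 in OIS-shA1 only. Not all of them gained, as FN1 went from 0.58% to 0.528% of the counts and COL6A3 from 0.565% to 0.529%. MMP1, interstitial collagenase, ranked highest in both groups and went from 1.99% to 3.20% of the counts. It had 17829, 18905 and 22845 CPM in OIS and 28939, 32868 and 36846 CPM in OIS-shA1 (log2 fold change 0.77, standard error 0.05, edgeR adjusted p = 2.8e-12). CXCL8 (IL-8, which recruits neutrophils) had 4712, 5054 and 6168 CPM in OIS and 10122, 11042 and 13110.0 CPM in OIS-shA1 (log2 fold change 1.11, standard error 0.06, edgeR adjusted p = 4.39e-14), and MMP3, stromelysin, 4462, 5371 and 6920.3 CPM in OIS and 9193, 11022 and 12394 CPM in OIS-shA1 (log2 fold change 1.02, standard error 0.07, edgeR adjusted p = 1.15e-11). For all 3 genes every OIS-shA1 library exceeded every OIS library. IL1B and PLAU, the urokinase gene, rose by smaller amounts (0.35 and 0.21), and IL1B lost its call when all 4 IMR90 groups were fitted together (edgeR adjusted p = 0.125). The abundant genes that fell were IGFBP5, a binding protein of insulin-like growth factors (-0.71), TGFBI, a matrix protein induced by TGF-beta (-0.49), HSPA8 (-0.16) and HSP90AA1 (-0.27), both cytosolic chaperones. THBS1, thrombospondin, was near the threshold (log2 fold change -0.17, standard error 0.06, edgeR adjusted p = 0.0369) and lost its call without OIS replicate 3, 7 or 8 or OIS-shA1 replicate 2, 4, 5, 7 or 8 (edgeR adjusted p from 0.0547 to 0.0694).

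Most tested SASP genes were higher after HMGA1 depletion. In a list of 28 tested SASP genes 21 rose and 3 fell (75% and 10.7%), with a median log2 fold change of 0.47, against 18.8% and 17.1% of all tested genes and a median of -0.00022. Of 9 chemokine genes 8 rose and 1 fell. CXCL5, a neutrophil chemokine, measured 202, 279.7 and 307 CPM in OIS and 543, 735 and 1002 CPM in OIS-shA1 (log2 fold change 1.5, standard error 0.10, edgeR adjusted p = 2.77e-12). Both groups were apart. The neighbouring CXCL3 (1.36) and CXCL2 (0.89) also rose, whereas CCL20, which draws dendritic and T cells, fell (-1.05). The genes with values in this paragraph that lie outside the naming rule (CXCL3, CXCL2, CCL20), as in the paragraphs that follow, were picked after their values were seen.

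Signalling genes of the SASP changed in both directions. Among 37 NF-kB and innate signalling genes 11 rose and 11 fell (29.7% and 29.7%, against 18.8% and 17.1% of all tested genes), or 11 and 17 with library sizes alone. The target TNFAIP6, a hyaluronan-binding protein made in inflammation, measured 1.17, 2.27 and 3.68 CPM in OIS and 4.98, 6.64 and 8.74 CPM in OIS-shA1 (log2 fold change 1.56, standard error 0.17, edgeR adjusted p = 2.74e-08), and PTGS2, cyclooxygenase-2, 1192, 1297 and 1528 CPM in OIS and 2550.1, 2729 and 3384 CPM in OIS-shA1 (log2 fold change 1.08, standard error 0.06, edgeR adjusted p = 7.63e-14). The groups were apart for both. The receptor gene IL1R1 (0.47) rose, while the IL-33 receptor gene IL1RL1 (-0.82), the survival factor gene BIRC3 (-0.64) and the NF-kB subunit gene RELB (-0.42) fell. Of 29 AP-1, C/EBP and immediate early factors 6 rose and 11 fell (20.7% and 37.9%). EGR4 (-1.78) and EGR2 (-1.06), zinc-finger factors that follow growth factor signals, led the falls, with EGR3 (-0.81), FOS (-0.72), EGR1 (-0.71) and ATF3 (-0.66) behind them. All 3 tested C/EBP genes rose, but only 1 of them with library sizes alone. In the RAS and ERK pathway, which the transgene drives, 8 rose and 6 fell among 28 tested genes (28.6% and 21.4%), or 7 and 12 with library sizes alone, led by the feedback inhibitors SPRED1 (0.68) and DUSP4 (-0.61).

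Genes of RAS and of the arrest changed in both directions. HRAS, whose count pools the endogenous gene and any transgene fragments that map to it, measured 1126, 1599.9 and 1869.6 CPM in OIS and 1252, 1318 and 1482 CPM in OIS-shA1 (log2 fold change -0.21, standard error 0.07, edgeR adjusted p = 0.0139). CDKN2A, the p16 and ARF gene, had 4.55, 6.45 and 11 CPM in OIS and 6.09, 8.61 and 10.5 CPM in OIS-shA1 (log2 fold change 0.44, standard error 0.12, edgeR adjusted p = 0.00613), and its neighbour CDKN2B, the p15 gene, 119.8, 136 and 153 CPM in OIS and 89.1, 101 and 134 CPM in OIS-shA1 (log2 fold change -0.36, standard error 0.07, edgeR adjusted p = 0.000135). These neighbours moved in opposite directions, and for HRAS, CDKN2A and CDKN2B the libraries of the groups overlapped. CDKN1A (p21) did not pass the threshold (log2 fold change -0.09, standard error 0.05, edgeR adjusted p = 0.147), but did without OIS replicate 4 (log2 fold change -0.12, edgeR adjusted p = 0.0173) and with library sizes alone (-0.17, edgeR adjusted p = 0.00309). LMNB1, whose lamin is lost in senescence, measured -0.25 (edgeR adjusted p = 0.0169), IL1A 0.47, HMGA2, the paralogue of HMGA1, 0.17 and CEBPB, a SASP regulator, 0.18 (edgeR adjusted p = 0.0283). HMGA2 lost its call with library sizes alone (edgeR adjusted p = 0.168). CEBPB lost it there (0.258), with all 4 groups in 1 fit (0.0716) and without OIS replicate 2, 3, 5 or 6 or OIS-shA1 replicate 2 or 4 (edgeR adjusted p from 0.0506 to 0.0737). Among all tested genes 18.8% rose and 17.1% fell. In the cell cycle arrest and E2F list 3 of 23 tested genes rose and 5 fell (13% and 21.7%), or 1 and 9 with library sizes alone. Its largest change was that of CDKN2C, the p18 inhibitor gene, at 0.35, 0.83 and 1.33 CPM in OIS and 0.703, 1.39 and 1.93 CPM in OIS-shA1 (log2 fold change 0.68, standard error 0.25, edgeR adjusted p = 0.0329). The groups overlapped, and the call was lost with library sizes alone (edgeR adjusted p = 0.0565), with any count as filter (0.0694) and without OIS replicate 3, 6 or 7 or OIS-shA1 replicate 1, 2, 7 or 8 (0.0545 to 0.0766).

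p53 target genes shifted downwards. Of 26 tested genes 0 rose and 12 fell, against 18.8% and 17.1% of all tested genes, with a median log2 fold change of -0.11. BTG2, an anti-proliferative p53 target, had 12.8, 15.5 and 17.5 CPM in OIS and 8.79, 11.9 and 14.2 CPM in OIS-shA1 (log2 fold change -0.42, standard error 0.09, edgeR adjusted p = 0.000551). Libraries of both groups overlapped. Further falls were GADD45A (-0.41), which acts in DNA damage arrest, SESN2 (-0.38), a stress-induced inhibitor of mTORC1, and PLK2 (-0.35), a polo-like kinase.

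Contractile and TGF-beta genes also shifted downwards. In a list of 24 contractile genes and targets of SRF and YAP, the factors that read actin tension, 2 rose and 13 fell (8.33% and 54.2%), with a median of -0.18. The shares of all tested genes were 18.8% and 17.1%. ANKRD1, a YAP target, had 1.87, 3.79 and 7.02 CPM in OIS and 0.392, 0.659 and 1.5 CPM in OIS-shA1 (log2 fold change -2.13, standard error 0.25, edgeR adjusted p = 1.22e-07), and TAGLN, the actin-binding protein transgelin, 47.8, 61.6 and 87.5 CPM in OIS and 26.3, 32.3 and 34.9 CPM in OIS-shA1 (log2 fold change -1.01, standard error 0.08, edgeR adjusted p = 3.33e-10). The groups were separate for both. CNN1 (-0.71) and MYOCD (-0.98), genes of smooth muscle contraction and its master cofactor, fell as well, and 3 of the 4 tested smooth muscle markers were lower. The sum of all 6 listed smooth muscle markers overlapped, at 281 to 401 CPM in OIS and 285 to 361 CPM in OIS-shA1. Whether other cell types took part in these falls was not tested. In TGF-beta and BMP signalling 3 of 30 rose and 14 fell (10.0% and 46.7%), and 5 of the 7 tested target genes fell with 0 rising. ID4, an inhibitor of helix-loop-helix factors, had 1.69, 2.67 and 5.01 CPM in OIS and 0.062, 0.557 and 1.5 CPM in OIS-shA1 (log2 fold change -2.01, standard error 0.29, edgeR adjusted p = 4.32e-06). All OIS-shA1 libraries lay under the OIS libraries. ID1 (-0.67), ID3 (-0.46), SMAD6 (-0.73) and SMAD7 (-0.31) fell too. Within the Notch list (2 higher and 4 lower of 15, 13.3% and 26.7%, or 2 and 9 with library sizes alone), the target HEYL fell (-1.07) and its relative HEY1 rose (0.75).

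Classes of extracellular matrix genes leaned in opposite directions. Of 25 tested collagens 12 rose and 4 fell (48% and 16%), against 18.8% and 17.1% of all tested genes. Among the rises were COL4A6 (0.75) and COL8A1 (0.70), which form networks rather than fibrils. COL3A1 (0.38) and COL1A2 (0.42) rose, while COL1A1 was not called (log2 fold change -0.19, standard error 0.08, edgeR adjusted p = 0.0649) except without OIS replicate 4 (log2 fold change -0.23, edgeR adjusted p = 0.0171), without OIS replicate 2 (0.0450) or 6 (0.0328) or OIS-shA1 replicate 4 (0.0476) or 6 (0.0309), and in 4 other fits (0.00689 to 0.0473). Elastic fibre and crosslinking genes went the other way, with 6 of 24 higher and 12 lower (25% and 50%), or 3 and 15 with library sizes alone. MFAP2, a microfibril glycoprotein, had 2.51, 8.76 and 11 CPM in OIS and 2.17, 4.25 and 4.71 CPM in OIS-shA1 (log2 fold change -1.21, standard error 0.15, edgeR adjusted p = 4.13e-07), and OIS replicate 4 was the only OIS library that overlapped with OIS-shA1. Elastin itself (ELN) fell by 1.14. Proteoglycans and matricellular proteins were split, 7 higher and 13 lower of 25 (28% and 52%). BGN, biglycan, had 111, 129.5 and 146 CPM in OIS and 45.2, 58.6 and 71 CPM in OIS-shA1 (log2 fold change -1.11, standard error 0.07, edgeR adjusted p = 2.75e-12), with the groups apart, whereas the closely related DCN and LUM (0.90) rose. Of the adhesion genes 7 of 23 rose and 7 fell (30.4% and 30.4%), or 5 and 10 with library sizes alone, with the largest falls in CDH11, the mesenchymal cadherin (-1.82), and ITGA4, an integrin that binds fibronectin and VCAM-1 (-0.97). Proteases and their inhibitors (16 higher and 9 lower of 33, 48.5% and 27.3%) were led by MMP10, stromelysin-2, with 82.5, 99.9 and 128 CPM in OIS and 247, 293 and 320.4 CPM in OIS-shA1 (log2 fold change 1.53, standard error 0.07, edgeR adjusted p = 4.27e-15), and by ADAMTS9, an aggrecanase-type protease, which fell (-1.26). TIMP3, a matrix-bound inhibitor of these enzymes, fell by 1.2 and TIMP2 rose (0.34).

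Growth factor genes were more often higher than lower. Of 32 growth factors and receptors 13 rose and 5 fell (40.6% and 15.6%, against 18.8% and 17.1% of all tested genes), or 12 and 8 with library sizes alone. KITLG, stem cell factor, had 55.8, 63.8 and 74.8 CPM in OIS and 119, 153 and 214 CPM in OIS-shA1 (log2 fold change 1.31, standard error 0.10, edgeR adjusted p = 2.18e-11), and PDGFB, a platelet-derived growth factor chain, 14.5, 17 and 20.1 CPM in OIS and 3.82, 5.1 and 7.69 CPM in OIS-shA1 (log2 fold change -1.66, standard error 0.11, edgeR adjusted p = 8.07e-12). Neither overlapped between the groups. HGF (0.68), PDGFD (0.79) and VEGFC (0.55) rose. Among 14 prostaglandin and complement genes 7 rose and 3 fell (50.0% and 21.4%), and the largest fall was that of SERPING1, the C1 inhibitor (-1.16). Of 31 interferon-stimulated genes 6 rose and 3 fell (19.4% and 9.68%), or 4 and 8 with library sizes alone, with CMPK2, a mitochondrial nucleotide kinase, highest (1.28). In the WNT pathway 5 of 22 rose and 5 fell (22.7% and 22.7%), or 3 and 8 with library sizes alone, including DKK2, a secreted WNT modulator (-0.60). Of 21 fibroblast identity factors 8 rose and 6 fell (38.1% and 28.6%), or 4 and 9 with library sizes alone, led by TCF21, a mesenchymal helix-loop-helix factor (1.03), and SNAI1, which represses epithelial genes (-0.72).

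Genes of the secretory route, lysosomes and sterol synthesis leaned upwards. Of 12 tested ER chaperones 10 rose and 0 fell, with a median of 0.26, or 6 and 0 with library sizes alone. Among all tested genes 18.8% rose and 17.1% fell. HSP90B1, the ER chaperone GRP94, had 899, 1039 and 1282 CPM in OIS and 1431, 1619.5 and 1825 CPM in OIS-shA1 (log2 fold change 0.63, standard error 0.06, edgeR adjusted p = 3.47e-09), and HSPA5, or BiP, measured 0.40. ATF4, the main factor of the integrated stress response, had 65.7, 73.1 and 79.6 CPM in OIS and 96.1, 116 and 156 CPM in OIS-shA1 (log2 fold change 0.77, standard error 0.08, edgeR adjusted p = 2.16e-08), both without overlap. In the ATF4 branch 4 of 12 tested genes rose and 2 fell, with a median of 0.17, or 1 and 2 with library sizes alone. The ATF4 targets ASNS (-0.54) and SLC7A11 (-0.47) fell. Of 26 lysosome and autophagy genes 13 rose and 2 fell (50% and 7.69%), with CTSS, cathepsin S (1), and CTSK, cathepsin K (0.75), among the rises and FUCA1, which removes fucose from glycans (-0.76), among the falls. In cholesterol synthesis 14 of 22 rose and 1 fell, or 10 and 1 with library sizes alone. HSD17B7 led the rises (0.58), with MSMO1 (0.46) and LSS (0.40), all enzymes of the sterol route, and SREBF2 (0.38), which encodes its controlling factor. The single fall was TM7SF2 (-0.48), a sterol reductase. NRF2 and metallothionein genes (6 higher and 1 lower of 16, 37.5% and 6.25%) were led by GCLM, of glutathione synthesis (0.64), and MT1E (-0.58).

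Glycolysis and hypoxia genes leaned downwards, with 2 of 29 higher and 9 lower (6.90% and 31%), or 1 and 18 with library sizes alone. Over all tested genes 18.8% were higher and 17.1% lower. CA9, the carbonic anhydrase that hypoxia induces, had 1.76, 3.2 and 4.7 CPM in OIS and 0.427, 0.619 and 1.69 CPM in OIS-shA1 (log2 fold change -1.89, standard error 0.26, edgeR adjusted p = 1.38e-06). The groups did not overlap. ALDOC, an aldolase, fell (-1.01), as did PDK1 (-0.59), which turns pyruvate away from mitochondria. The direction of the respiratory chain list hung on the scaling, with 11 of 76 higher and 5 lower, but 1 higher and 13 lower with library sizes alone, and COX6C (0.26) and NDUFC1 (-0.24) as largest changes. The cytosolic ribosomal proteins (5 higher and 2 lower of 78) likewise turned to 0 and 22. Their share of all counts was 2.21 ± 0.101% in OIS and 2.09 ± 0.0817% in OIS-shA1 (SD, n = 8, two-sided exact permutation test, adjusted p = 0.0396, or 0.0589 without OIS replicate 4).

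Chromatin genes shifted by small amounts. Among 41 genes of the lamina, heterochromatin and genome architecture 5 rose and 14 fell (12.2% and 34.1%), or 3 and 22 with library sizes alone. The shares of all tested genes were 18.8% and 17.1%. SUV39H1, the histone H3 lysine methyltransferase of heterochromatin, had 4.23, 6.99 and 8.11 CPM in OIS and 2.97, 4.51 and 5.06 CPM in OIS-shA1 (log2 fold change -0.64, standard error 0.13, edgeR adjusted p = 0.00028), and ASF1A, a histone chaperone that takes part in senescence-associated foci, 27.6, 29.9 and 39.1 CPM in OIS and 17.6, 21.3 and 25.2 CPM in OIS-shA1 (log2 fold change -0.49, standard error 0.08, edgeR adjusted p = 8.31e-06). Libraries overlapped for SUV39H1 and not for ASF1A. CBX5, heterochromatin protein HP1-alpha, fell (-0.30). Of the other 8 high mobility group genes of the B and N families 3 rose and 1 fell, with HMGN1 at 0.26. The share of counts in 33 replication-dependent histone genes, whose transcripts mostly lack a poly(A) tail, was 0.0124 ± 0.000842% in OIS and 0.0156 ± 0.000964% in OIS-shA1 (SD, n = 8, two-sided exact permutation test, adjusted p = 3.89e-04). In the microRNA machinery 1 of 10 rose and 2 fell, with AGO2 (0.23) and XPO5 (-0.20) as largest changes.

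**Figure D3:**
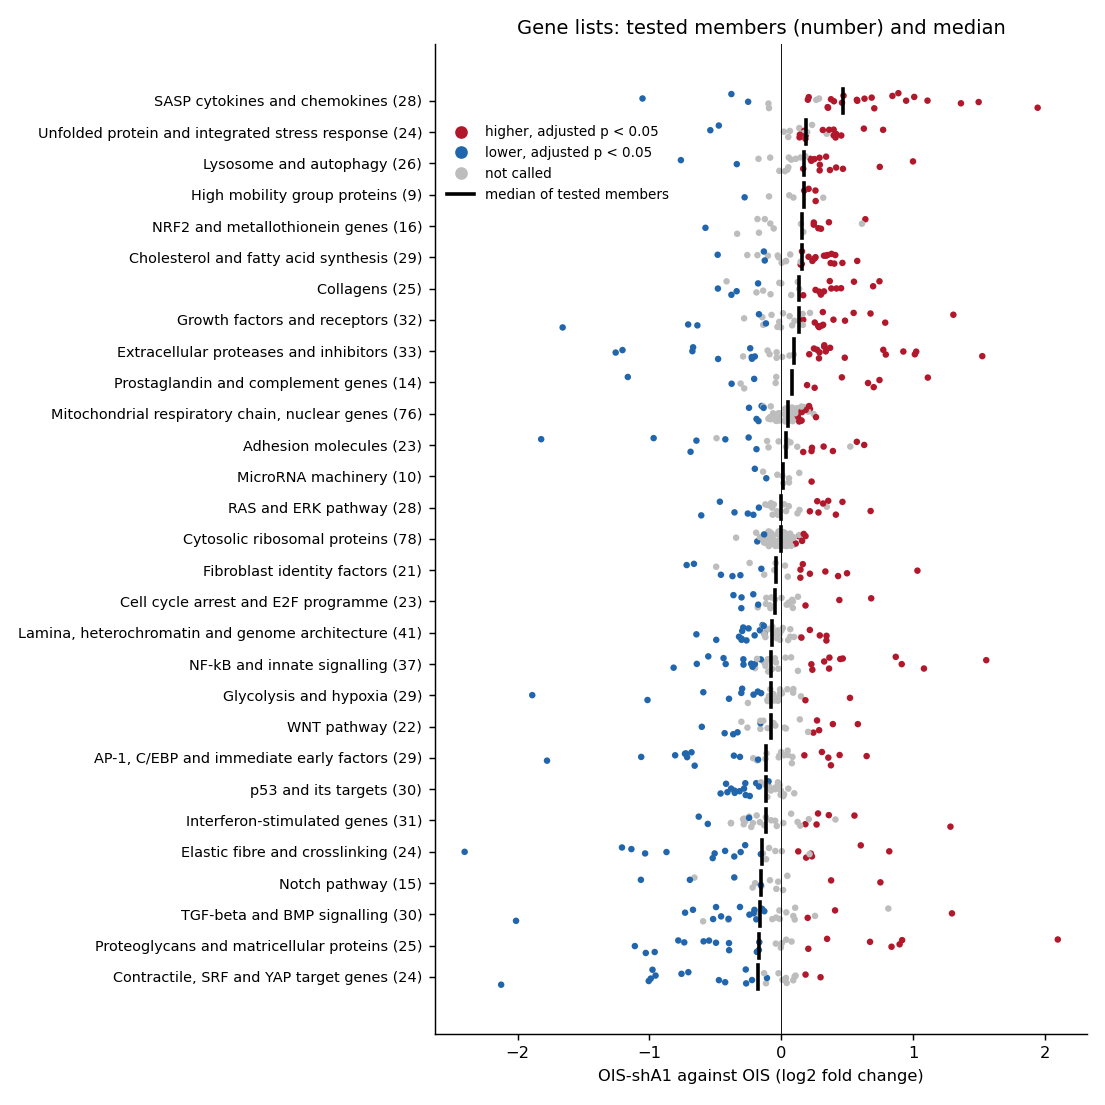
Log2 fold change in OIS-shA1 relative to OIS (horizontal axis) of each tested member of 29 gene lists, HMGA1 left out of its own list, with called members in colour and a bar at the median of each list. SASP genes lie highest (median 0.47) and contractile genes lowest (median -0.18), and most lists hold genes of both directions.

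Some changed genes lay next to each other. Runs of at least 3 consecutive tested genes called in the same direction with a change of at least 1.5-fold numbered 9 among the rises (31 genes) and 7 among the falls (21 genes). The longest, of 5 genes, lay on chromosome 7 of hg19 from 93514709 to 93695973. It held TFPI2, a serine protease inhibitor of the matrix (1.06), its divergent transcript TFPI2-DT (1.13), GNG11, a G protein subunit (0.79), BET1, of vesicle transport (0.68), and a transcript without a symbol. TFPI2-DT was low, at 0 to 0.687 CPM in OIS and 0.375 to 1.27 CPM in OIS-shA1, and the groups overlapped for it. A run on chromosome 11 (102617699 to 102714338) held MMP10, MMP1 and MMP3 with the pseudogene WTAPP1, and another on chromosome 4 (74861359 to 74965010) CXCL5, CXCL3 and CXCL2. Among the falls, runs held the acute-phase genes SAA2 and SAA1 with MRGPRX3, the serpins SERPINA1, SERPINA9 and SERPINA12, and the pregnancy-specific glycoproteins PSG1, PSG7 and PSG2. Members of these families have much sequence in common, so reads they share were not counted and their single values are uncertain.

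Part of the response was also seen in cells without active RAS. Grow and Grow-shA1 cells are the same IMR90 line with the same constructs and without 4OHT (8 libraries each), and here 3905 of 13072 genes (29.9%) were called. Of 12686 genes tested in both states 1896 were called in both, 1482 of them in the same direction, which is 32.2% of the genes called in OIS and 39.1% of those called in Grow. The log2 fold changes of the 12686 genes had a Spearman correlation of 0.30 across genes, which are not independent replicates. The fall of MFSD2B was -2.93 in Grow and -3.26 in OIS, and the rise of SYT7 1.9 and 2.2. LIPG rose by 1.48 in Grow and RPSAP52 by 1.43. The 4 genes therefore moved in both states.

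Other leading genes differed between the states. The effect of shA1 in OIS minus that in Grow was tested as an interaction over all 32 IMR90 libraries. It passed the edgeR threshold in 3281 of 13903 genes (23.6%) and in 10 of the 20 leading genes, which were chosen for a large change in OIS. MUC5AC was not among these 10, but passed with DESeq2 (interaction -4.4, DESeq2 adjusted p = 0.00355). CCL2 measured -0.14 in Grow and 1.95 in OIS (interaction 2.09, edgeR adjusted p = 1.29e-10). EVI2B measured -0.31 and 1.84 (interaction 2.15, edgeR adjusted p = 1.44e-08). DCN rose in both states, by 0.44 in Grow and 2.1 in OIS (interaction 1.66, edgeR adjusted p = 5.61e-15). SLCO2A1 was -0.43 and -2.28 (interaction -1.84, edgeR adjusted p = 0.000237), and ANOS1 fell in both, by 0.91 and 2.33 (interaction -1.42, edgeR adjusted p = 0.00208). For the comparison of OIS with Grow, which shares the OIS libraries, only the values of single genes are given. DCN had a log2 fold change of -2.91, CCL2 of -1.39, MFSD2B of 0.66 and FBLN2 of -1.23 in OIS relative to Grow.

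**Figure D4:**
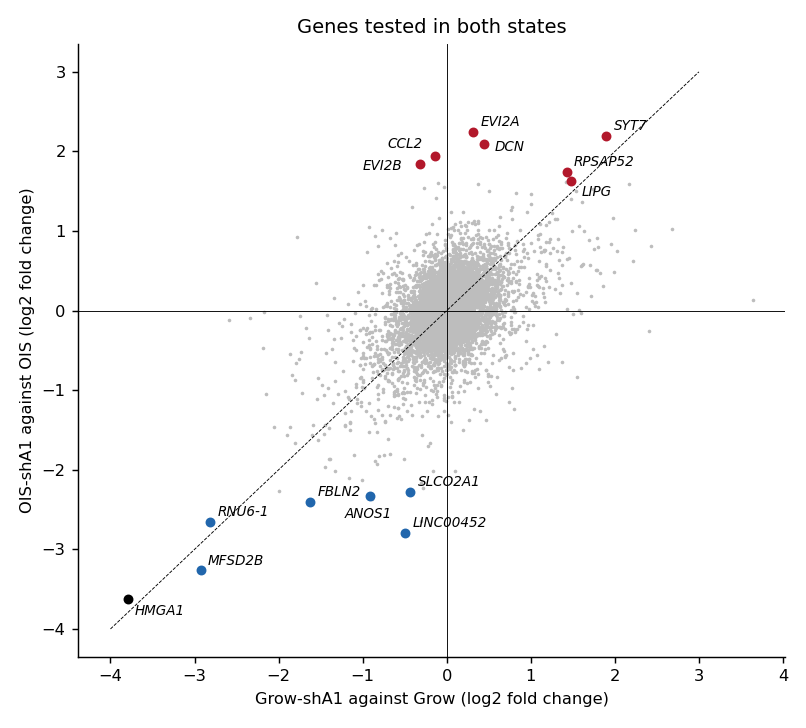
Log2 fold change with shA1 in Grow (horizontal axis) against that in OIS (vertical axis) for the 12686 genes tested in both, with HMGA1 and the leading genes tested in both named and equal change as a dashed line. SYT7, LIPG and MFSD2B lie near the diagonal, whereas CCL2, DCN and SLCO2A1 lie far from 0 on the OIS axis alone or mostly.

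In H1299, a lung cancer line with endogenous HMGA1, the hairpin left more of the target (log2 fold change -2.31 over 7 H1299 and 6 H1299-shA1 libraries), and 2311 of 14840 genes (15.6%) were called. Of 12243 genes tested in both lines 921 were called in both, 659 in the same direction, which is 15.3% of the genes called in OIS and 33.9% of those called in H1299. Among the 13 leading genes tested there, 6 were called in the same direction as in OIS and 0 in the opposite direction. MFSD2B (-1.48), RNU6-1 (-2.43) and SLCO2A1 (-0.69) fell, and RPSAP52 (0.86), LIPG (0.76) and ANO3 (0.43) rose. RPSAP52, LIPG, MFSD2B and RNU6-1 were thus called in the same direction in OIS, Grow and H1299. Their group means in H1299 cells were low, from 0.17 CPM (RNU6-1 in H1299-shA1) to 1.38 CPM (LIPG in H1299-shA1). The value of RNU6-1 is uncertain because of its near-identical copies.

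The genes that rose lay more often in A/T-rich parts of the genome. When the tested genes were divided into quintiles by the A+T share of the 200 kb of hg19 centred on each gene, a window chosen after the data were seen, 9.60% of the genes in the most G/C-rich quintile rose and 20.2% fell. In the most A/T-rich quintile 29.3% rose and 13.3% fell, with a steady change in between (13.3%, 18.8% and 22.8% higher in the quintiles from low to high). The median log2 fold change went from -0.06 to 0.07, and the Spearman correlation across the 13327 genes was 0.19, the same as for the A+T share of the exons (0.19). In genes of the highest quintile by mean level the share higher was 18.2% and 41.2% in the most G/C-rich and most A/T-rich quintiles, and the share lower 15.2% and 12.3%. In the lowest quintile by mean level 4.58% and 14.2% were higher, and 15.6% and 15.3% lower. The shares lower thus differed little in both. By chromosome, the share of tested genes that rose was lowest on chromosome 19 (8.62%) and highest on chromosome 18 (29.2%). By gene class, 16.6% of 863 genes annotated as lncRNA rose and 8.34% fell, against 19.3% and 18% of 11964 protein-coding genes.

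The same gradient varied between libraries of one group as much as between the groups. For each library, the median deviation from the gene means in the most A/T-rich quintile minus that in the most G/C-rich quintile was taken on the log2 scale, over 10149 genes with at least 10 counts in every library. It ran from -0.33 to 0.32 in OIS (median -0.04) and from -0.13 to 0.32 in OIS-shA1 (median 0.02). The ranges overlapped, and the difference in means of 0.09 did not pass a two-sided exact permutation test (p = 0.334, or 0.0936 with a difference of 0.14 without OIS replicate 4). The highest OIS value was that of replicate 4. After removing, in each library, the median deviation of genes with a like A+T share in their exons, the shares of genes higher in the lowest and highest regional quintiles were 18.7% and 27.6%, the shares lower 19.7% and 20.9%, and the correlation 0.05. Regional and exon A+T shares were correlated across the tested genes (Spearman 0.80). This fit therefore also takes out any difference between the groups that follows exon A+T, and cannot tell it from library base composition. The part of library base composition in the regional shares was not tested further, and the fit was added after the data were seen. The 20 leading genes kept their calls in that fit. In Grow the same quintiles held 10.6% and 17.3% higher and 13.2% and 19.2% lower genes, and in H1299 5.09% and 11.4% higher and 10.3% and 5.88% lower genes.

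**Figure D5:**
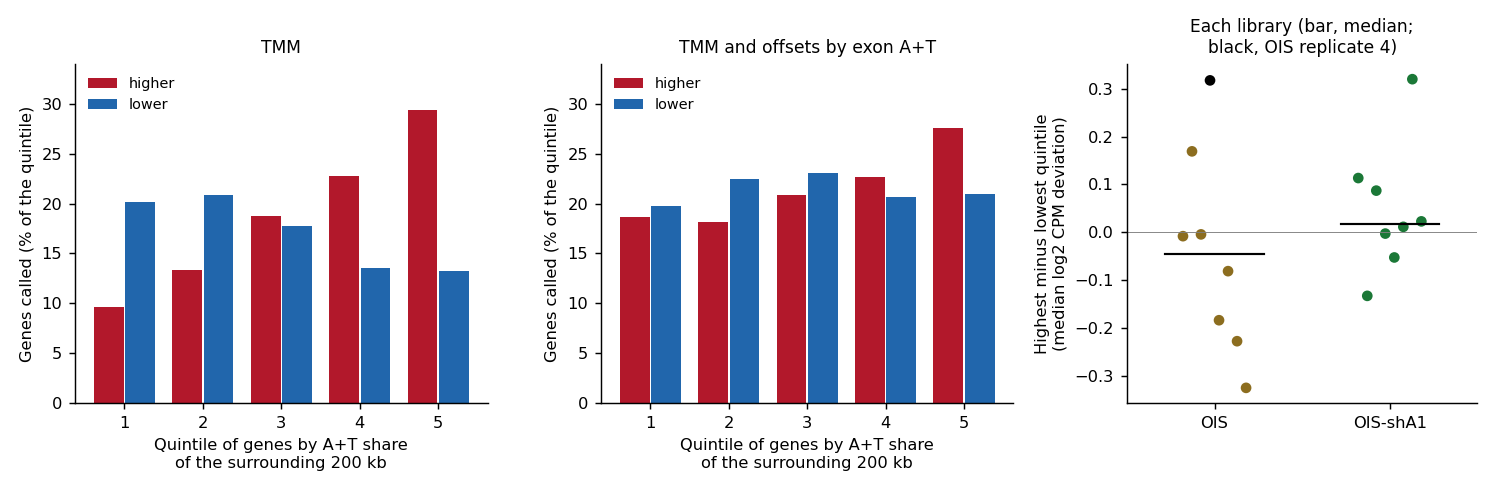
Share of tested genes called higher and lower (vertical axis, percent) in quintiles by the A+T share of the surrounding 200 kb (horizontal axis), with and without removal of exon base composition, beside the gradient of each library (highest minus lowest quintile, log2 scale, bar at the median). The share higher climbs from 9.60% to 29.3%, and goes from 18.7% to 27.6% after the removal. The removal also takes out any group difference that follows exon A+T. The gradients of OIS and OIS-shA1 libraries overlap.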

How the data were processed

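Poly(A)-selected libraries were made with 1 of 2 stranded kits on 1 of 2 instruments, and which library had which is not given in the sources used here. The authors aligned reads to hg19 with STAR and counted fragments over GENCODE19 exons with featureCounts (1.5.2 in the file header), and the deposited values are raw counts of 44503 genes, without normalization. Strand was ignored, and fragments with several alignments or on several genes were not counted. No mitochondrial genome genes are in the table used here. A symbol was matched to 42662 identifiers.

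The 16 OIS and OIS-shA1 libraries were fitted pairwise in edgeR 4.0.16 (R 4.3.3) with TMM factors, filterByExpr (minimum count 10) and its quasi-likelihood test. A gene was called when its p, adjusted by Benjamini-Hochberg over all genes tested, was under 0.05, whatever its fold change. Standard errors were derived from the log2 fold change and the F statistic. Grow and H1299 comparisons were fitted in the same way, and the interaction over all 32 IMR90 libraries. CPM used TMM library sizes of the 16 libraries. The leading genes are the 10 largest rises and falls among called genes with a symbol, a mean of at least 1 CPM and no overlap between groups, HMGA1 set aside. The other named genes are the 5 most abundant called genes in each direction, the 2 largest changes in each list, 9 senescence genes and the longest runs. The libraries, lists and rules were chosen with earlier results of these data known. The lists held 813 entries, of which 10 were not matched. No set test was run. Some results for single genes are not reported here.

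Library measures were compared by two-sided exact permutation tests (scipy 1.17.1). No library pair agreed within sampling noise (lowest chi-square per degree of freedom 3.46). The edgeR fits were first tested on simulated counts. Alternatives were DESeq2 1.42.0, other scalings, filters, thresholds, a replicate block, all 4 groups in 1 fit, and each library left out in turn. Offsets by exon A+T and the A+T windows, computed from GRCh37, were added after seeing the data. Promoters came from RefSeq (GRCh38.p14), in a build other than that of the counts. Total counts per library ran from 1903607 to 22136571, so counting error is largest in OIS replicate 4. Intervals between replicates cover the spread of these samples only. Figures were drawn with matplotlib 3.10.9.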

Additional observations from a re-analysis of the deposited data

Results flagged for a closer look

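Within 52 groups of 8 values examined for single libraries far from the others, 5 were found, of which chance alone would give about 1 in 20 groups. PLCH1 in OIS-shA1 replicate 1 had 1.66 CPM against 0.336 to 0.929 in the other OIS-shA1 libraries. ANOS1 in OIS-shA1 replicate 7 had 2.17 CPM against 0.588 to 1.25. OIS replicate 4 accounted for the other 3, with a total count of 1903607 against 16088398 to 18475595, 14249 genes with at least 1 count against 18561 to 19339, and 0.0105% of counts in replication-dependent histone genes against 0.0124% to 0.0133%.

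In 10 of the 20 leading genes the effect of shA1 in OIS differed from that in Grow by the edgeR interaction test, all of them chosen for a large change in OIS. The difference of log2 fold changes, OIS minus Grow, was positive in EVI2B (2.15), CCL2 (2.09), EVI2A (1.94), FER1L6 (1.84) and DCN (1.66). It was negative in MCPH1-AS1 (-2.63), LINC00452 (-2.29), SLCO2A1 (-1.84), ANOS1 (-1.42) and FBLN2 (-0.77).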

How the results depend on the processing

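Of 117 named genes none changed direction in any alternative. With library sizes alone, 1553 genes were higher and 4037 lower, and the interaction was positive in 888 and negative in 3456 genes, while the totals called stayed within 1.5 times (5590 and 4344). A minimum of 1.5-fold left 981 genes (446 higher, 535 lower) and one of 2-fold 294 (99 higher, 195 lower). Leaving out each library in turn gave 4422 to 5155 called genes, and the highest count was that without OIS replicate 4. DESeq2 called 4998 genes, all 4 groups in 1 fit 5169, any count as filter 4960 of 25795, at least 10 counts in every library 4084 of 10149, and offsets by exon A+T 5727. Same-numbered libraries did not deviate together (correlations from -0.148 to 0.094, 0 of 8 over 0.1, and 0 of 8 libraries closest to their own number), so the numbers do not pair them. With the replicate number as a block 4125 genes were called, and 5 of the 117 named genes (RPL24, SAA1, SLCO2B1, SERPINA12 and CLDN4) lost their calls. CDKN2C, IFIT2, ROR1 and those 5 also lost them when certain single libraries were left out, as did THBS1 and CEBPB. The number of genes with at least 1 count differed by -474 (OIS-shA1 minus OIS, two-sided exact permutation test, adjusted p = 0.0308) without OIS replicate 4, against 112 with it (adjusted p = 0.991). The cause of these changes was not tested.

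Depth limited OIS replicate 4 most, and genes of a few counts there, such as EVI2A with 0, rest on the other 7 OIS libraries. A single hairpin, unknown kits and instruments, and counting without strand bound what the values can show.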

Other observations

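Other runs of neighbouring rises held genes of separate functions. On chromosome 2 of hg19 (151324709 to 152236560) RND3, RBM43, NMI and TNFAIP6 followed each other, and on chromosome 2 (101887681 to 102091165) RNF149, CREG2 and RFX8. On chromosome 8 (17354597 to 17658426) the arginine transporter gene SLC7A2 stood beside PDGFRL and MTUS1. Among the falls, ELN, CLDN4 and METTL27 were neighbours on chromosome 7 (73213872 to 73484237), and SH3TC1 and HTRA3, a secreted protease gene, on chromosome 4 (8183799 to 8360065). These are described without a test.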
